A study of Mus musculus with 2 samples.

Results

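Laminin chains, integrin chains and the glycoproteins that join them in basement membranes were followed in cells of the developing mouse lacrimal gland. The genes were taken by name: every laminin alpha, beta or gamma chain, every integrin alpha or beta chain, and Nid1, Nid2, Hspg2, Agrn, Dag1, Smoc1, Smoc2 and Sparc. They came to 46 of the 27775 features in the count tables, under 45 symbols, because Itgam is listed under 2 overlapping identifiers. The study made 1 library from embryos at day 16 (E16) and 1 from pups 4 days old (P4), both from wild-type mice of the CD1 strain, and the labels name no treatment. Glands were pooled at each stage, digested with Liberase TM and DNaseI, and run as single cells; the protocol names Drop-seq for barcoding and the processing notes Cell Ranger. With 1 library a stage there is no replicate, so no difference between stages was tested, and stage and library cannot be told apart.

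A basement membrane is a thin sheet of matrix under epithelium and around vessels, muscle and nerve. Laminins, each a trimer of an alpha, a beta and a gamma chain, assemble into one network and type IV collagen into another, and nidogens, perlecan (Hspg2) and agrin (Agrn) link them. Cells hold the sheet through integrins, which are pairs of an alpha and a beta chain, and through dystroglycan (Dag1). In branching glands the basement membrane at the epithelial and mesenchymal border is built with chains from both tissues and is remodelled as ducts and acini form.

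Barcodes with at least 200 detected genes were kept, 259 of 437 at E16 and 406 of 687 at P4, and no barcode was shared between the libraries. Kept cells had a median of 5802 UMIs (unique molecular identifiers, counts of captured transcripts) at E16 and 3767 at P4. Cells were clustered without the 46 features and named from marker genes. The epithelial-like class held 87 cells at E16 and 98 at P4, the mesenchyme-like class 98 and 177, and smaller classes the rest. A shallow epithelial-like cluster of 82 cells, with a median of 1938.5 UMIs and 5 detected epithelial markers, received another name under some settings. At E16 the epithelial-like class held 57 cells at resolution 1.6 and 40 with members kept among variable genes. The smooth muscle or myoepithelial-like class then held 46 and 62. At resolution 0.6 the epithelial-like class stayed at 87. Different clusters filled the epithelial-like class at the 2 stages: a cluster led by Epcam, Perp and Col9a1 held 31 cells at E16 and 4 at P4, a cluster led by Wfdc18, Krt18 and Krt8 held 8 and 33, and a cluster led by the secretory genes Dcpp1, Dcpp2 and Dcpp3 held 0 and 27. The mesenchyme-like class was likewise made mainly of 2 clusters at E16, with 60 and 21 cells, and of 3 others at P4, with 79, 43 and 42. Markers of other classes were present in these sums. In epithelial-like cells the 14 mesenchyme markers together stood at 443 CPM (UMIs scaled to a class total of 1000000) at E16 and 1094 at P4, against 17908 and 44569 in mesenchyme-like cells. The 8 smooth muscle or myoepithelial markers stood at 1233 and 1401 CPM in epithelial-like cells, mostly Acta2, and Cnn1 there went from 2 UMIs to 65. In mesenchyme-like cells the 17 epithelial markers stood at 65.8 and 136.7 CPM, against 3874 and 7505 in epithelial-like cells. Macrophage markers in epithelial-like cells went from 11.2 to 119.5 CPM and glial markers from 392 to 54.3. Whether these counts came from other cells or from the named class was not tested, nor was their part in the values below. The smooth muscle or myoepithelial-like class, of 16 and 9 cells, held only 4 and 1 UMIs of the 17 epithelial markers. Its mesenchyme markers stood at 9399 and 14785 CPM and its pericyte markers at 2576 and 3069. Rgs5, Cox4i2 and Ndufa4l2, all pericyte markers, were among its leading genes. The name is kept below, but its markers were those of smooth muscle and pericytes, with few of epithelium. The 13 mitochondrial features held no UMI, so cell damage could not be read from them.

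Of the 46 features, 44 had at least 1 UMI in kept cells and 26 had 30 or more over both libraries. They summed to 5101 UMIs at E16 and 8231 at P4, of which Sparc, a collagen-binding matricellular protein, held 2714 and 5874. Laminin chains held 454 and 577 UMIs, integrin chains 1107 and 1042. Itgad, an integrin chain of leukocytes, and 1 of the Itgam identifiers stayed at 0. Transcript counts from one end of the RNA are not compared between genes here; each gene is compared with itself across cells.

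The mesenchyme-like class held the largest part of the UMIs of many of these genes at both stages. Among the 26 measured features, it held the most UMIs of 17 at E16 and of 19 at P4. The epithelial-like class held the most of 8 and 5. The mesenchyme-like class was also the largest, with 37.3% and 41.1% of all UMIs, and the same count over all genes was not made. The largest part was not always the greater part: at E16 this class held 31 of 80 Hspg2 UMIs and 40 of 91 of Lama4. The mesenchyme-like share of laminin UMIs was larger at P4 than at E16. At E16, 33.7% of laminin UMIs (95% exact binomial interval 29.4 to 38.3) came from epithelial-like cells and 40.1% (35.5 to 44.8) from mesenchyme-like cells. At P4 the shares were 19.2% (16.1 to 22.7) and 70.7% (66.8 to 74.4). The share of all UMIs went from 36.6% to 37.3% in epithelial-like cells and from 37.3% to 41.1% in mesenchyme-like cells. Receptor chains followed the same order: epithelial-like cells held 23.8% (21.4 to 26.5) of integrin UMIs at E16 and 13.1% (11.2 to 15.4) at P4, and mesenchyme-like cells 47.2% (44.2 to 50.1) and 59.98% (56.9 to 63.0). Intervals here and below cover counting error only. The P4 laminin share of epithelial-like cells was 12.6% without the richest cell of each gene, 9.53% with each library clustered alone and 11.9% with cells weighted equally. Naming each cell from its own marker UMIs, without clusters, left 26 and 69 epithelial-like and 18 and 57 mesenchyme-like cells, with 69 and 90 cells unnamed, and gave P4 laminin shares of 6.93% and 20.5% in epithelial-like and mesenchyme-like cells. In that setting the epithelial-like integrin share was 6.78% at E16 and 8.16% at P4, the opposite direction.

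Epithelial-like and mesenchyme-like cells of the same library were set side by side, calling a gene when its CPM differed at least 2-fold and the 2 classes held 30 or more UMIs together. At E16, 17 members could be compared. In epithelial-like cells 4 were higher, Itga6, Agrn and Dag1 among them, where 14.8% of 5629 genes were called, and 10 were lower, where 20.2% of genes were: Itga8, Hspg2, Lama2, Lama4, Itgb1, Nid2, Sparc, Nid1, Itga5 and Itgb5. Lamc1, Lamb1 and Smoc2 lay within 2-fold. At P4, 17 could be compared, none was higher in epithelial-like cells (background 11.4% of 5376 genes), and 16 were lower (background 29.4%). Dag1 was the one within 2-fold. A member could reach the minimum through the class where it was high, so these counts do not describe all members. Under the minimum at P4, Itga6 had 22 UMIs in epithelial-like and 2 in mesenchyme-like cells, Itgb4 17 and 3, and Agrn 14 and 3. Smoc1, with 1 and 20, and Itgav, with 5 and 17, went the other way. Itgb3 was among the 16, with 39 of its 51 mesenchyme-like UMIs in 1 cell.

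In epithelial-like cells 10 members could be compared between stages. None was 2-fold higher at P4, where 7.09% of 5007 genes were, and 6 were lower, where 27.4% were, among them Smoc2, Itgb1, Lamc1, Itgb5 and Itga6. Agrn, Sparc, Dag1 and Lamb1 lay within 2-fold, but not in every setting: Sparc was past 2-fold lower in 7 of 14 alternatives, to 0.327, Agrn in 6, to 0.402, and Dag1 in 1, at 0.431. The median of the 10 was -1.28 on the log2 scale, beside -0.53 for all genes. With the 50 most abundant genes of either library left out of the total, the all-gene median was -0.09, the background of lower genes 13.9% and of higher genes 12.1%, and 5 members were lower, Itga6 then lying within 2-fold. With a minimum of 100 UMIs in place of 30, 2 members were lower, Smoc2 and Itgb1. The others, among them Lamc1, Itgb5 and Itga6, had fewer UMIs than that, and the share of all genes at that minimum was not counted. In mesenchyme-like cells 19 members could be compared. Itgb3, Itga2b, Hspg2, Sparc, Lamb1 and Lamc1 were higher at P4, where 6.93% of 5711 genes were, Smoc2 was lower, where 13.6% were, and 12 lay within 2-fold. The median of the 19 was 0.39 beside -0.18 for all genes. With abundant genes left out, 6 were higher (background 7.46%) and 1 lower (12.5%). Only 3 were higher at a minimum of 100 UMIs, since Itgb3, Itga2b and Lamc1 had fewer UMIs than that. The share of all genes at that minimum was not counted. Itgb3 was no longer higher without 1 cell, as described with that gene.

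Lamb1 and Lamc1 encode the beta1 and gamma1 chains that most laminin trimers share. Lamc1 (chr1:153218922-153332786, mm10) had 38 UMIs in epithelial-like cells at E16, 60.6 CPM, and 16 at P4, 21.7 CPM. In mesenchyme-like cells it had 25 UMIs, 39.1 CPM, at E16 and 72 UMIs, 88.7 CPM, at P4. The ratio of P4 to E16 was thus 0.358 (95% interval 0.187 to 0.658) in the first class and 2.27 (1.42 to 3.73) in the second, and the difference between the classes was not tested. The epithelial value rested on few deep cells: 37 of the 38 E16 UMIs lay in the cluster led by Epcam, Perp and Col9a1. It was 0.548 without the Dcpp cluster and 0.926 when cells were weighted equally. After each cell was thinned to 1342 UMIs, 4.05% of epithelial-like cells held a Lamc1 UMI at E16 and 4.62% at P4, against 20.7% and 13.3% before thinning, so the share of cells gave no order; 10 and 23 shallower cells were left out of the thinning. In mesenchyme-like cells the thinned shares were 5.30% and 11.7%, and 22.4% and 32.2% before, with 2 cells left out of each library. Endothelial-like cells had 19 and 6 Lamc1 UMIs and glial-like cells 13 and 3.

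Lamb1 (chr12:31265234-31329644) was higher in mesenchyme-like cells at P4, with 53 UMIs at E16 and 164 at P4, 83.0 and 202 CPM, a ratio of 2.43 (1.78 to 3.38). Its UMIs were spread over 40 of 98 and 99 of 177 mesenchyme-like cells, and no cell held more than 7 of them at P4. In epithelial-like cells the counts were 37 and 53, 59.0 and 71.95 CPM. At P4, however, 41 of the 53 UMIs came from 1 cell, and without it the level was 16.5 CPM. The ratio between stages was 1.22 (0.786 to 1.91) with that cell and 0.314 without the richest cell of each library. It was 0.160 with cells named from their own marker UMIs and 2.23 with cells weighted equally. That cell held 9020 UMIs, among them 58 of Acta2, 21 of Krt18 and 4 of Epcam. At E16 the epithelial Lamb1 signal was in the same cells as Lamc1: 11 of 16 Lamb1-positive epithelial-like cells also had a Lamc1 UMI, against 9.86% of the others, and the positive cells were deeper, with a median of 16184 UMIs against 3190. In mesenchyme-like cells at P4, 39.4% of Lamb1-positive and 23.1% of other cells had Lamc1, with medians of 4625 and 4030.5 UMIs. Lamb2, the beta2 chain, had 15 and 34 UMIs in mesenchyme-like cells and 8 and 13 in epithelial-like cells, and its mesenchymal ratio was 1.78 (0.946 to 3.52), and 2.18 with cells weighted equally.

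The alpha chain sets which receptor a laminin binds, and these chains split by tissue. Lama2, the chain of muscle and nerve laminins, had 45 UMIs in mesenchyme-like cells at E16, 70.5 CPM, and none in epithelial-like cells. Taking 3 counts for that 0, it was 14.7-fold higher in mesenchyme-like cells, with the lower end of the counting interval at 11.5-fold. At P4 it had 60 and 4 UMIs, 13.6-fold apart (5.05 to 51.6). Lama4, found in vessel and stromal laminins, had 40 and 73 UMIs in mesenchyme-like cells, 62.6 and 89.9 CPM, and 16 and 7 in epithelial-like cells. Between stages the ratios in mesenchyme-like cells were 1.05 (0.701 to 1.58) for Lama2 and 1.44 (0.963 to 2.17) for Lama4, both within 2-fold. With each cell named from its own marker UMIs they were 2.18 and 0.397, past 2-fold and for Lama4 in the other direction. Lama1 and Lama5, the alpha chains of epithelial laminins, were sparse: Lama1 had 7 UMIs at E16 and 2 at P4, every one epithelial-like, and Lama5 had 10 of its 13 UMIs at E16 and 5 of its 5 at P4 there. No Lama1 or Lama5 UMI fell in a mesenchyme-like cell of either library.

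Lama3 and Lamb3, chains of epithelial laminin, were sparse. Lama3 had 4 epithelial-like UMIs at each stage, of 8 in all at E16 and 4 at P4. Its E16 level was higher in endothelial-like cells, at 31.3 CPM against 6.38 in epithelial-like cells. Lamb3 had 2 UMIs at each stage in epithelial-like and 2 in mesenchyme-like cells. Lamc3 had 1 UMI a library, both in mesenchyme-like cells. Single cells with a UMI of each of 3 chains that can form a trimer were counted. This counts RNA found together and not an assembled protein. Lama4, Lamb1 and Lamc1 were found together in 13 of 177 mesenchyme-like cells at P4 and 1 of 98 at E16, in 5 of 87 epithelial-like cells at E16, and in 4 of 6 glial-like cells at E16. Lama2, Lamb1 and Lamc1 were found together in 11 mesenchyme-like cells at P4 and 3 at E16. Lama1 and Lama5 were each found with Lamb1 and Lamc1 in 3 epithelial-like cells at E16 and in 0 of 98 at P4, which allows up to 3.06% of cells with a UMI of all 3 chains and sets no limit on cells expressing them.

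Krt14, a keratin of basal epithelium, divided the epithelial-like cells further, as a description. At E16 the 54 cells with a Krt14 UMI held 105 of the 113 epithelial Smoc2 UMIs, 52 of the 55 of Dag1 and 36 of the 38 of Lamc1. Those cells had a median of 6491 UMIs and the other 33 a median of 2734. On the CPM scale Smoc2 stood at 225 and 49.9 CPM in cells with and without Krt14, Dag1 at 111 and 18.7, Lamc1 at 77.1 and 12.5, and Itga6 at 68.6 and 49.9. Itgb4, with 7 and 4 UMIs, and Itga3, with 5 and 3, were higher on that scale in cells without Krt14, Itga3 at 10.7 and 18.7 CPM. Itga4 stood at 23.6 and 24.96 CPM. At P4 the 31 cells with Krt14 held 16 of 17 Smoc2 UMIs and 36 of 45 of Dag1.

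Of the linkers of the 2 networks, the nidogens and Hspg2 were higher in mesenchyme-like than in epithelial-like cells, and agrin was lower. Nid1 and Nid2, the nidogens that bind laminin gamma1, had 86 and 149 UMIs in mesenchyme-like cells at E16 against 5 and 5 in epithelial-like cells, 16.9-fold (6.96 to 53.3) and 29.3-fold (12.3 to 91.4) higher. At P4 the counts were 176 and 140 against 5 and 6, 31.9-fold (13.4 to 99.6) and 21.2-fold (9.49 to 58.7). Between stages Nid1 stood at 1.61 times (1.24 to 2.11) its E16 level in mesenchyme-like cells and Nid2 stood at 0.739 (0.583 to 0.937), both within 2-fold, though Nid1 stood at 2.32 with cells named from their own marker UMIs. At E16, 44 of 55 Nid1-positive mesenchyme-like cells also had Nid2, at P4 50 of 96. These counts are not set beside the share among Nid1-negative cells or the depth of the cells, so they show no link between the nidogens.

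Hspg2 (chr4:137468769-137570630), which encodes the proteoglycan perlecan, had 31 UMIs in mesenchyme-like cells at E16 and 122 at P4, 48.5 and 150 CPM, a ratio of 3.10 (2.07 to 4.75). The P4 UMIs lay in 79 of 177 cells and no cell held more than 4. Endothelial-like cells had 30 Hspg2 UMIs in 5 of 10 cells at E16, 11 of them in 1 cell, and 18 in 11 of 22 cells at P4, 313 and 214 CPM, within 2-fold. These were its highest class levels in both libraries. Agrn (chr4:156165290-156197488), best known for clustering acetylcholine receptors at the nerve-muscle synapse, went the other way in tissue: 23 UMIs in epithelial-like and 10 in mesenchyme-like cells at E16, 36.7 and 15.7 CPM, 2.34-fold (1.07 to 5.51) apart, then 14 and 3 at P4. Its epithelial ratio between stages was 0.518 (0.246 to 1.05).

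Promoter sequences are shown for 4 members that differed 2-fold or more between the tissues at E16 and whose window holds no annotated exon: Agrn and Dag1, higher in epithelial-like cells, and Lama2 and Itga5, higher in mesenchyme-like cells. Itgb1 and Itgb5 also met both conditions and are not printed; their windows held 1 and 3 GC boxes, with a G and C content of 68.0% and 65.2%. Each is the 250 bases before the transcription start given by RefSeq (GRCm38.p6), 5′ to 3′ on the gene's strand, all 4 on the minus strand: Agrn at chr4:156197489-156197738, Dag1 at chr9:108263959-108264208, Lama2 at chr10:27616943-27617192 and Itga5 at chr15:103366792-103367041. Capitals mark GC boxes (GGGCGG, either strand, overlapping matches counted separately). The Lama2 window lies inside the longer gene span of the GENCODE annotation.
Agrn: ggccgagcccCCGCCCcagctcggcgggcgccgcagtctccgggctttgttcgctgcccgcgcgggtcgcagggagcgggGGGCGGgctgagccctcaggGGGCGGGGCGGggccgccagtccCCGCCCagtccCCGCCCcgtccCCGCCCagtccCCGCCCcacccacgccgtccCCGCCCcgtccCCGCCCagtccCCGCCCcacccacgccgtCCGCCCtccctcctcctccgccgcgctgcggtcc
Dag1: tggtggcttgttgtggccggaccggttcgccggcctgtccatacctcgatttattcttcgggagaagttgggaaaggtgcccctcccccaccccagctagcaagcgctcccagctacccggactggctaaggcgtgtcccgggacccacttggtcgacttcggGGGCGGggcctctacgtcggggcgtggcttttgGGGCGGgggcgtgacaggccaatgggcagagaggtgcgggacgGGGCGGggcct
Lama2: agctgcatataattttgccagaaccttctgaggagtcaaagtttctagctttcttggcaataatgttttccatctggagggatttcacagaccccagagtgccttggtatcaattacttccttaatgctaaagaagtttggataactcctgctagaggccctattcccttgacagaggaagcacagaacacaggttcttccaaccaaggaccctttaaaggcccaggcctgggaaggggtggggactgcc
Itga5: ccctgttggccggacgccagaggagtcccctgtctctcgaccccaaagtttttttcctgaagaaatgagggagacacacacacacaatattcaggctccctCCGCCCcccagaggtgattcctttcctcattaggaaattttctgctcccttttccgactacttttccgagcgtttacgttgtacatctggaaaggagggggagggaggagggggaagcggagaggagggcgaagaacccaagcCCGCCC
The Agrn window had 12 GC boxes and a G and C content of 83.6%, the Dag1 window 3 and 67.6%, the Lama2 window 0 and 47.2%, and the Itga5 window 2 and 55.6%. A second Agrn start in the table had 2 boxes and 60.8%. A GC box was found in 32.7% of 32851 mouse promoter windows of the same length, and in at least 1 window of 12 of the 28 member symbols that the RefSeq table held. The TATA box (TATAAA), in 12.4% of all windows, was in none of the members' windows. A match describes letters and not a bound site.

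Sparc and the SMOC proteins belong to one family of secreted calcium-binding matrix proteins. Sparc (chr11:55394500-55423183) had 1527 UMIs in the 98 mesenchyme-like cells at E16 and 5042 in the 177 at P4, 2391 and 6211 CPM, a ratio of 2.60 (2.45 to 2.75), and every one of these cells held at least 1. It was higher still in glial-like cells, with 190 UMIs in each library, 4527 CPM over 6 cells at E16 and 9619 over 4 cells at P4. In endothelial-like cells it stood at 4282 and 3596 CPM and in smooth muscle or myoepithelial-like cells at 3638 and 4686. Among P4 mesenchyme-like cells Sparc varied by cluster, from 3517 CPM in the largest to 11375 CPM in one of 42 cells led by Mfap5, Clec3b and Ly6a. The epithelial level was 469 CPM at E16 and 242 at P4. Sparc was also the member that showed most outside its tissues: 24.0% of erythroid-like cells at E16, 25% at P4 and 25.5% of P4 macrophage-like cells held a UMI, at 40.0, 43.4 and 86.4 CPM. In those erythroid-like cells no other member was found in more than 2 cells.

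Smoc2 (chr17:14279506-14404790) was the member that was lower at P4 in both tissues. In epithelial-like cells it had 113 UMIs at E16 and 17 at P4, 180 and 23.1 CPM, a ratio of 0.128 (0.0721 to 0.214). In mesenchyme-like cells it had 182 and 86, 285 and 106 CPM, a ratio of 0.372 (0.284 to 0.483). Other classes held at most 2 Smoc2 UMIs each. Smoc1 had 12 and 20 UMIs in mesenchyme-like cells, a ratio of 1.31 (0.610 to 2.94), and 3.21 with cells named from their own marker UMIs.

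Itgb1 (chr8:128685654-128733200) encodes the beta1 chain, the partner of most matrix-binding alpha chains. It was found in every structural class. In mesenchyme-like cells it had 296 UMIs over 94 of 98 cells at E16 and 313 over 129 of 177 at P4, 463 and 386 CPM, a ratio of 0.832 (0.707 to 0.978). One P4 cell held 27 of them. In epithelial-like cells the counts were 122 and 45, 195 and 61.1 CPM, a ratio of 0.314 (0.218 to 0.445). The epithelial level was below the mesenchymal one 2.38-fold (1.92 to 2.97) at E16 and 6.31-fold (4.61 to 8.83) at P4. Smooth muscle or myoepithelial-like cells stood at 854 and 528 CPM, endothelial-like cells at 615 and 736, and glial-like cells at 596 and 354, in each class within 2-fold or too few to compare. Erythroid-like cells had 1 Itgb1 UMI at E16 and 0 at P4.

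**Figure D1:**
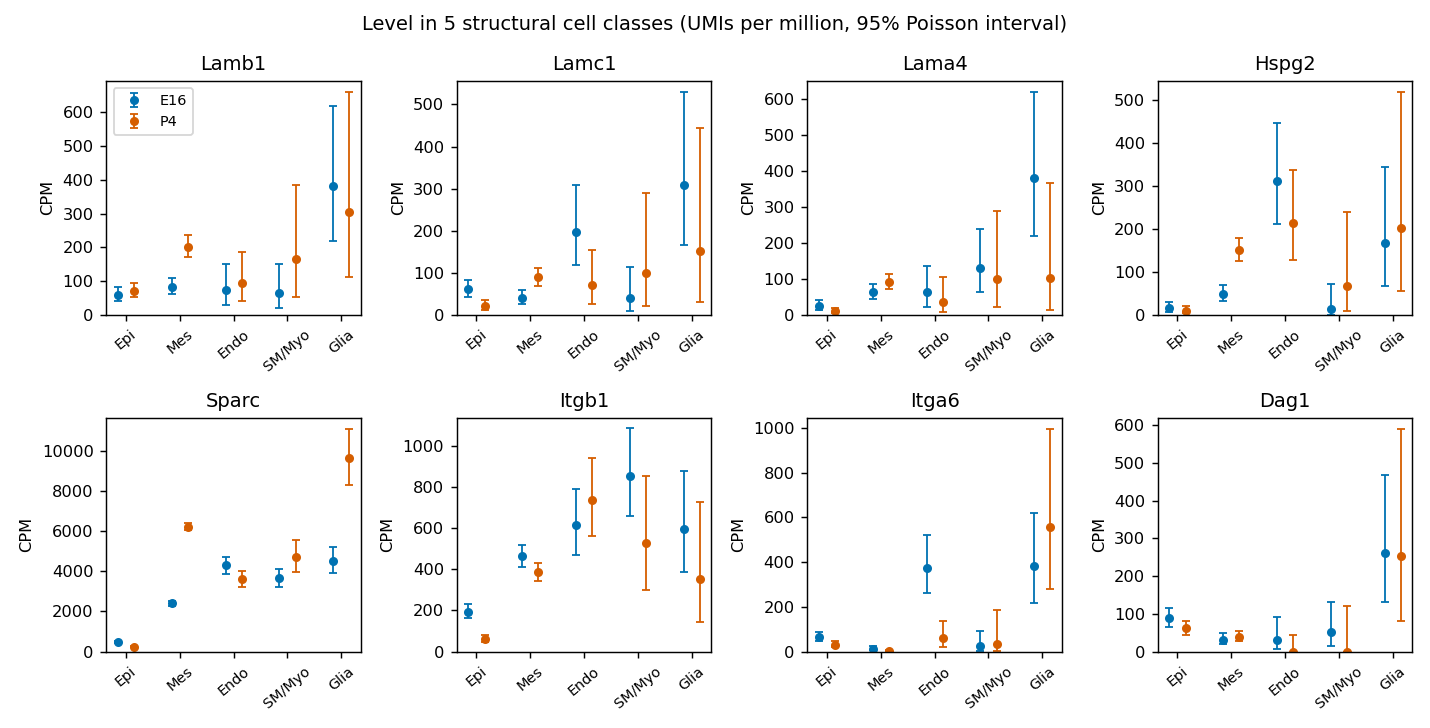
Points are CPM of 8 genes in 5 structural classes at E16 (blue) and P4 (orange), with 95% Poisson intervals and a linear axis per gene; Epi, Mes, Endo, SM/Myo and Glia stand for the epithelial-like, mesenchyme-like, endothelial-like, smooth muscle or myoepithelial-like and glial-like classes. Lamb1 and Hspg2 stand apart between stages in Mes, and Itga6 in Endo, at 375 and 59.3 CPM.

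Among alpha chains of laminin receptors, Itga6 (chr2:71745616-71858416) had 40 UMIs in epithelial-like, 36 in endothelial-like and 16 in glial-like cells at E16, and 8 in mesenchyme-like cells, of which 6 were in 1 cell. At P4 the counts were 22, 5, 11 and 2. Endothelial-like cells went from 375 to 59.3 CPM, a ratio of 0.158 (0.0485 to 0.405), and epithelial-like cells from 63.8 to 29.9 CPM, a ratio of 0.468 (0.265 to 0.807). The epithelial ratio was 0.695 without the Dcpp cluster and 0.814 with cells weighted equally. The endothelial-like class held 10 cells at E16 and 22 at P4, and of its 2 clusters the one with Vwf among its leading genes held 2 and 11 of them. One E16 endothelial-like cell held 15 of the 36 UMIs. Itgb4, the beta chain that pairs with Itga6 in hemidesmosomes, had 11 and 17 UMIs in epithelial-like cells. Of the 13 epithelial-like cells with Itga6 at P4, 5 had Itgb4, against 7.06% of the others, and the first were deeper, with a median of 9020 UMIs against 3226. Itga3, a chain of another laminin receptor, had 8 UMIs at E16, all epithelial-like, and 3 of its 4 there at P4. Itga7, the laminin receptor chain of muscle, had 12 and 7 UMIs, in mesenchyme-like and smooth muscle or myoepithelial-like cells but for 1.

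Itga8, whose partner is Itgb1 and whose ligand is nephronectin (Npnt), was mesenchymal, with 35 and 30 UMIs there and 1 and 6 in epithelial-like cells, 34.4-fold (5.77 to 1395) and 4.54-fold (1.86 to 13.3) apart. All 27 Itga8-positive mesenchyme-like cells at E16 also had Itgb1, as did 94.4% of the others. Npnt itself was epithelial: 29 UMIs in 23 of 87 epithelial-like cells at E16, 46.3 CPM, and 0 in mesenchyme-like cells. At P4 it had 0 UMIs in epithelial-like cells, 1 in mesenchyme-like and 2 in endothelial-like cells. Taking 3 counts for the 0, it was 11.4-fold lower in epithelial-like cells, a value that is not a lower limit. Itga5, the fibronectin receptor chain, had 33 and 36 UMIs in mesenchyme-like cells, 51.7 and 44.3 CPM, and 3 and 2 in epithelial-like cells. Its ratio between stages was 0.858 (0.520 to 1.42), while its ligand Fn1 had 191 and 766 UMIs there, 299 and 944 CPM, a ratio of 3.16 (2.69 to 3.72). Endothelial-like cells had 4 and 13 Itga5 UMIs.

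Itgb5 and Itgav make a receptor for vitronectin and other matrix proteins. Itgb5 had 86 and 106 UMIs in mesenchyme-like cells, 135 and 131 CPM, a ratio of 0.970 (0.723 to 1.30). In epithelial-like cells it had 35 and 15, 55.8 and 20.4 CPM, a ratio of 0.365 (0.185 to 0.685). That direction turned, to 1.30, when each cell was named from its own marker UMIs. Itgav had 17 UMIs in mesenchyme-like cells at each stage, and 7 and 5 of the cells holding one also had Itgb5. These counts are not set beside the share of Itgb5 among the other cells.

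Itgb3 (chr11:104608000-104670476) and Itga2b (chr11:102453297-102470122) make the fibrinogen receptor of platelets. Both were higher in P4 mesenchyme-like cells. Itgb3 had 8 UMIs at E16 and 51 at P4, but 39 of the 51 lay in 1 cell of 5810 UMIs. Without the cell with the most UMIs in each library the levels were 11.1 and 14.9 CPM, within 2-fold. Itga2b had 11 UMIs over 11 cells at E16 and 51 over 35 cells at P4, 17.2 and 62.8 CPM, a ratio of 3.65 (1.88 to 7.76), with 11 in the richest cell. The 35 cells held none of the 5 platelet markers and at least 63 UMIs of mesenchyme markers each. None of them was among the cells with Itgb3, but those were only 12 of the 177 mesenchyme-like cells. With so few, the count cannot show whether the chains lie in different cells. After thinning, 2.32% of mesenchyme-like cells at E16 and 7.17% at P4 held an Itga2b UMI, against 11.2% and 19.8% before. Among the members, 17 overlap another annotated gene on the same strand, Itga2b among them, and counts of overlapping genes are uncertain.

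**Figure D2:**
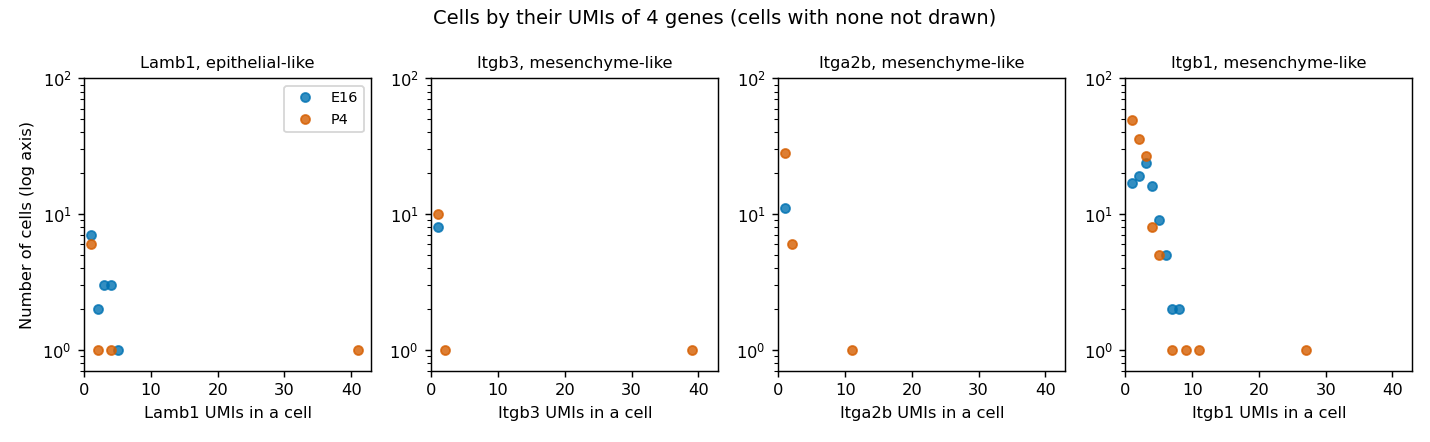
Each point is the number of cells (log axis) holding a given number of UMIs of Lamb1 in epithelial-like cells, and of Itgb3, Itga2b and Itgb1 in mesenchyme-like cells, at E16 (blue) and P4 (orange); cells with none are not drawn. At P4 single cells lie far to the right, at 41 UMIs of Lamb1, 39 of Itgb3, 11 of Itga2b and 27 of Itgb1.

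The remaining matrix-binding chains were sparse. Itga1, a collagen receptor chain, had 22 UMIs at E16, 14 of them over 8 of 16 smooth muscle or myoepithelial-like cells, and 4 at P4. Itga9, which binds tenascin, had 11 of its 16 E16 UMIs in epithelial-like cells, and 1 of 15 there at P4, when mesenchyme-like cells had 7. Itga4 had 15 of 29 UMIs in epithelial-like cells at E16 and 2 of 9 at P4. Itgb6, the beta chain of an epithelial receptor for latent TGF-beta, had 3 and 2 UMIs, all epithelial-like. Itgb8 had 12 and 3 UMIs, in glial-like and epithelial-like cells for the most part. Itga2 had 6 and 2, Itga11 2 and 3, the latter all in mesenchyme-like cells, and Itga10 1 and 0.

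Leukocyte integrins marked leukocyte classes. Itgb7, the beta7 chain of gut- and epithelium-homing lymphocytes, had 29 of its 40 P4 UMIs in the 18 T or innate lymphoid-like cells, 966 CPM over 10 cells, of which 1 held 14, and was among the leading genes of that cluster, from whose clustering it was left out. The E16 library had no such cell and 2 Itgb7 UMIs, both in mast-like cells. Itgae, its alpha partner in the skin and mucosa, had 1 UMI there at P4, and Itga4, its other partner, none. Itgb2, the shared chain of leukocyte adhesion receptors, had 5 UMIs at E16, all in dendritic cell or monocyte-like cells. At P4 it had 21, with 8 in macrophage-like, 7 in T or innate lymphoid-like and 6 in dendritic cell or monocyte-like cells. Itgam had 7 UMIs at P4, 6 of them in macrophage-like cells, Itgal 2 and 6, and Itgax 2 at P4 in 1 cell. From a list of counter receptors of leukocyte integrins in general, Icam1 had 36 and 37 UMIs in mesenchyme-like cells. Vcam1, from the same list, had 31 and 105, a ratio of 2.66 (1.77 to 4.12).

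Dystroglycan is a laminin receptor outside the integrin family. Dag1 (chr9:108204634-108263958) had 55 and 45 UMIs in epithelial-like cells, 87.7 and 61.1 CPM, and 20 and 32 in mesenchyme-like cells, 31.3 and 39.4 CPM. It was 2.80-fold (1.65 to 4.93) higher in epithelial-like cells at E16 and 1.55-fold (0.963 to 2.52) at P4. Between stages it lay within 2-fold in both classes, except for 0.431 in epithelial-like cells named from their own marker UMIs. Glial-like cells, with 11 and 5 UMIs, stood at 262 and 253 CPM. Of the dystrophin complex that joins dystroglycan to actin, Sntb2, a syntrophin, was the 1 gene of 12 measured in epithelial-like cells. Sntb2 had 30 and 15 UMIs and was lower by the 2-fold rule (27.4% of all genes). With abundant genes left out it was not (13.9% of all genes). In mesenchyme-like cells 5 were measured and Utrn, which encodes utrophin, was lower (13.6% of all genes), with 25 and 14 UMIs.

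The partners of these genes were taken from lists of pathway genes. Of 18 basement membrane genes found in the files outside the members, 3 were measured in epithelial-like cells and all 3 were lower at P4, where 27.4% of all genes were: Col4a1 and Col4a2, the main type IV collagen chains, with ratios of 0.441 (0.298 to 0.645) and 0.358 (0.213 to 0.587), and Tinagl1, which binds laminin and integrins, with 0.345 (0.260 to 0.454). Col4a1 lay within 2-fold with abundant genes left out. Other classes differed: Col4a2 stood at 833 and 320 CPM in endothelial-like cells, and at 246 and 1353 CPM in smooth muscle or myoepithelial-like cells, where it was found in 8 of 16 and 4 of 9 cells. In mesenchyme-like cells 7 were measured, and Col4a1 and Col4a2 stayed at 1.04 and 1.05 times the E16 level. Tinagl1 and Egflam, the latter a dystroglycan ligand, were lower (13.6% of all genes), at 0.256 (0.175 to 0.367) and 0.409 (0.272 to 0.606). Among 6 measured hemidesmosome and basal cell partners in epithelial-like cells, Krt15, Bcam (a receptor for laminin alpha5) and Krt14 were lower (all genes 27.4%), Krt15 from 127 UMIs to 8, and Krt14 lay within 2-fold with abundant genes left out. Of 11 measured integrin adaptors in epithelial-like cells 4 were lower, beside 27.4% of all genes, and 3 with abundant genes left out, beside 13.9%. Among the 4 were Fermt1, the epithelial kindlin, at 0.236 (0.105 to 0.486), and Tln1, which encodes talin, at 0.311 (0.160 to 0.575). In mesenchyme-like cells 1 of 10 was higher, Tns2 (6.93% of all genes), and 1 lower, Fermt2 (13.6%).

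Interstitial ligands of integrins were higher in P4 mesenchyme-like cells in 7 of 13 measured genes (6.93% of all genes) and lower in none (13.6%). Postn, which encodes periostin, went from 456 to 1983 UMIs, a ratio of 3.42 (3.09 to 3.80), Thbs1 from 30 to 128, and the collagen genes Col1a1 and Col3a1 stood at 2.41 (2.30 to 2.52) and 2.87 (2.75 to 2.99). In epithelial-like cells 4 of 9 were higher (7.09% of all genes), Fn1, Postn, Col1a1 and Col3a1, and 1 was lower (27.4%), Cyr61. With abundant genes left out 5 were higher (12.1% of all genes) and 0 lower (13.9%). Col1a1 had 141 UMIs there at P4 against 7598 in mesenchyme-like cells. The mesenchyme markers Dcn and Lum moved with them there, from 49 to 174 and from 19 to 65 UMIs, and their part in the result was not tested. Median log2 ratios for this list were 1.16 in mesenchyme-like and 0.59 in epithelial-like cells, beside -0.18 and -0.53 for all genes.

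Glial-like cells, though only 6 and 4, gave high levels of several members at once. The size of this class depended on the setting. It held 25 and 10 cells at resolution 0.6, and 30 and 5 with cells named from their own marker UMIs. With each library clustered alone it held 32 cells at E16. Its levels are given for the main clustering only. At E16 Lamb1, Lama4 and Itga6 each stood at 381 CPM (218 to 619) with 16 UMIs, and Lamc1 at 310 (165 to 530), against 59.0, 25.5, 63.8 and 60.6 CPM in epithelial-like cells. At P4 the same 4 had 6, 2, 11 and 3 UMIs. The myelin gene Mbp was first among the leading genes of these cells. In epithelial-like cells Sox10 and Fabp7, both on the glial marker list, had 53 and 177 UMIs at E16. The whole list held 246 UMIs in those cells and 110 in glial-like cells, and whether the former came from glia was not tested.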

How the data were processed

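Single-cell transcript counts (UMIs per gene and barcode) were deposited by the authors for 1 library at E16 and 1 at P4. Cell Ranger and the mm10 build are named in the submitters' processing notes, and the sources used here give no other settings. Barcodes with at least 200 detected genes were kept. Cells were clustered over both libraries with scanpy 1.11.5 and leidenalg 0.10.2 (2000 variable genes without the members, 20 principal components, 15 neighbours, resolution 1), and clusters were named from marker lists. The leidenalg version of the algorithm was taken after the clusters had been seen. A doublet caller marked 1 cell at E16 and 0 at P4, and none was removed. UMIs were summed per class and library and divided by the class total (CPM, scaled to a total of 1000000). Ratios carry exact 95% conditional intervals (scipy 1.17.1) and were called at 2-fold with 30 or more UMIs, and 3 counts stood for a 0. These intervals were tried on simulated counts drawn from the counting model that they assume. The simulation held no clumping of UMIs in single cells, so it cannot show how the intervals hold for such counts. Every member is accounted for, with values by class for those of 30 or more UMIs, and other genes come from fixed lists. Some results are not reported here. Members and lists were chosen with earlier results of these data known. Genes singled out as leading a cluster, and the Krt14 division, were chosen after their values were seen. Alternatives changed the cell filter, clustering, naming, weighting, totals and minimum count. Promoters came from RefSeq (GRCm38.p6), gene positions from GENCODE M21 on mm10.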

Additional observations from a re-analysis of the deposited data

Results flagged for a closer look

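Lamc1 pointed in opposite directions in the 2 tissues: its level at P4 was 0.358 of that at E16 in epithelial-like cells and 2.27 times that at E16 in mesenchyme-like cells. With 1 library a stage the difference was not tested. The epithelial-like value was 0.926 with cells weighted equally and 0.548 without the Dcpp cluster, and thinned cells held a Lamc1 UMI in 4.05% at E16 and 4.62% at P4.

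Barcodes under the minimum of 200 detected genes entered no comparison, and some held member UMIs above the 3 counts taken for a 0. At E16 the 178 such barcodes held 46 member UMIs, 21 of them of Sparc. At P4 the 281 such barcodes held 73, with 42 of Sparc and 4 each of Itgb1, Nid1 and Smoc2. Haemoglobin genes supplied 500407 of the 523094 UMIs in the first set and 702614 of the 736800 in the second.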

How the results depend on the processing

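No paired analysis was possible because each stage has 1 library. Over 15 alternatives, 29 stage ratios of members gave 406 values, of which 379 lay within the counting interval of the main value. Of the ratios past 2-fold, 1 turned direction, Itgb5 in epithelial-like cells, at 1.30 with each cell named from its own marker UMIs. Ratios within 2-fold turned too, among them Lama4 in mesenchyme-like cells (0.397 in that setting) and, in epithelial-like cells, Lamb1 (0.160 in that setting) and Dag1 (1.14 with cells weighted equally). Hspg2, Lamc1, Sparc and Smoc2 in mesenchyme-like cells, and Smoc2 and Itgb1 in epithelial-like cells, stayed past 2-fold in all 14 alternatives that gave a value for each.

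Of the counts, members higher in epithelial-like cells went from 0 to 1 with cells weighted equally. With a minimum of 100 UMIs, 2 members were lower in epithelial-like cells and 3 higher in mesenchyme-like cells. The other members of those counts had fewer UMIs than the minimum, and the share of all genes there was not counted. The shares of chains depended more on the classes. Each cell named from its marker UMIs gave laminin shares of 7.93% (epithelial-like) and 8.59% (mesenchyme-like) at E16 and 6.93% and 20.5% at P4, and integrin shares of 6.78% and 8.85%, then 8.16% and 19.4%. Weighting cells equally gave 24.7% and 47.3% for laminins at E16, 11.9% and 76.2% at P4, and for integrins 20.8% (epithelial-like, E16), then 9.02% and 51.7% at P4. With each library clustered alone the mesenchyme-like shares at E16 were 30.6% (laminins) and 34.0% (integrins), and the P4 shares 9.53% and 75.7%, and 10.4% and 65.1%. At resolution 0.6 the E16 mesenchyme-like shares were 31.5% and 34.8%, and with the igraph version of the algorithm 31.3% and 34.4%. The E16 epithelial-like integrin share was 19.9% with at least 500 detected genes, 19.9% with members kept among variable genes and 20.4% without the shallow epithelial-like cluster. Without the richest cell of each gene the P4 laminin shares were 12.6% and 76.7%. The causes were not tested. The igraph setting and the one without the shallow cluster were chosen after seeing the data. Depth limits the 20 features under 30 UMIs, for which no ratio is given.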
